A study of Mus musculus with 22 samples.

Results

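T cells that carry NK1.1 without CD8a (labelled TCRb+CD8a-NK1.1+, 2 libraries) were compared with NK1.1+ cells without a T-cell receptor (labelled TCR-NK1.1+, 2 libraries), taken by their titles as 4 of the 22 RNA-seq libraries and 2 of the 11 sorted populations of the series. All libraries came from pooled mammary tumours of female C57BL/6 PyMT mice aged 20 to 24 weeks, with no further treatment or allele named, where the PyMT transgene drives mammary tumours through a viral oncogene. Tumours were cut and digested with collagenase and DNase, lymphocytes were taken from a Percoll gradient, stained and sorted directly into lysis reagent, before cDNA amplification with a SMARTer kit. The comparison sets NK1.1+ cells with a T-cell receptor, sorted without CD8a, beside NK1.1+ cells without one, whose label names no CD8a gate. NK1.1+ T cells with CD8a (TCRb+CD8a+NK1.1+, 2 libraries) served to tell which features belong to the CD8a- cells, and a second set of libraries from the same study holds the nearest pair with and without a receptor: TCRab+ILTC1 cells (innate-like T cells with TCRab) and ILC1l cells (ILC1-like cells), 2 libraries each. Below, TCRb+CD8a-NK1.1+ cells are called the CD8a- T cells and TCR-NK1.1+ cells the TCR- cells. Values are CPM (counts per 1000000 after TMM scaling) for replicate 1 and then replicate 2.

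A T-cell receptor is a pair of clonal chains (TCRa and TCRb here) held at the surface by the CD3 chains and CD3 zeta, whose ITAM motifs are phosphorylated by Lck and bound by Zap70, with Lat passing the signal on. NK cells and other innate lymphocytes read their targets instead through germline-encoded lectin and immunoglobulin-like receptors, many of which signal through the ITAM adaptors encoded by Fcer1g and Tyrobp. NK1.1, the product of Klrb1c, is a marker of NK cells and ILC1, and also appears on NKT cells and on other innate-like T cells, which can kill with perforin and granzymes as NK cells do.

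The 4 libraries held 13682730 to 15823458 counts in genes, against 8696335 to 20602715 over all 22. At least 1 count was found for 18570 and 14690 genes in the CD8a- T cells and for 17400 and 18664 in the TCR- cells, so that replicate 2 of the CD8a- T cells was the least diverse of the 4. Genes of other cells also set it apart. The summed CPM of 16 epithelial genes (Cdh1 was left out after its values were seen, since the CD8a+NK1.1+ T cells also held 511 and 649 CPM of it) was 4000.3 and 309 in the CD8a- T cells, 6244 and 3497 in the TCR- cells, and 74.2 and 56.7 in the CD8a+NK1.1+ T cells. For 20 myeloid genes the sums were 1329 and 484, 2199 and 2085, and 176 and 234, in the same order. Both lists were lower in the 2 libraries of the CD8a- T cells than in replicate 1 of the TCR- cells, and the myeloid sums of the 2 populations did not overlap. For 10 stromal genes the sums were 120.0 and 13.9 against 239 and 278, and for 9 B-cell genes 673 and 561 against 1030.1 and 657, which overlap. Without Ighm, left out after its values were seen, the other 8 B-cell genes summed to 51.5 and 26.1 against 335 and 123. In replicate 2 of the CD8a- T cells 4 of 17 epithelial and 5 of 20 myeloid genes were at 0, and in each of the other 3 libraries none was. In bulk libraries, fewer cells of a type and less RNA per cell cannot be told apart, and nothing in the labels says that replicates came from separate animals, so p-values measure the spread between these libraries only.

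**Figure D1:**
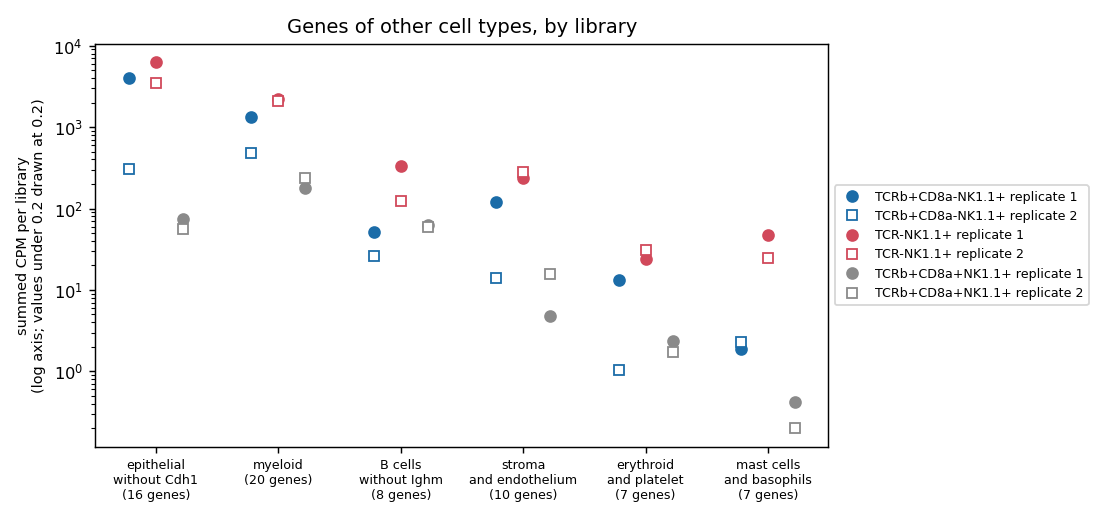
Summed CPM of genes of other cell types (log axis) in each library of the CD8a- T cells (blue), the TCR- cells (red) and the CD8a+NK1.1+ T cells (grey); circles are replicate 1 and squares replicate 2. The myeloid, stromal and B-cell (without Ighm) sums of the CD8a- T cells lie below those of the TCR- cells, and their epithelial sums, 4000.3 and 309, lie more than 1 decade apart. The mast-cell sums include Cma1, which mouse NK cells also transcribe. In the TCR- cells Cma1 held 40.3 and 23.2 CPM of mast-cell sums of 47.3 and 24.4.

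Transcripts of the CD3 chains, of Trac and of some signalling genes such as Sit1 lay higher in the CD8a- T cells, and those of perforin, several granzymes, several NK receptors and the adaptor Tyrobp lay higher in the TCR- cells, but no single gene passed the test. With edgeR's quasi-likelihood test and Benjamini-Hochberg adjustment, 0 of 15727 tested genes had an adjusted p under 0.05 (0%), and the lowest adjusted p was 0.0662. At an unadjusted p under 0.05, there were 1345 genes (8.55%), 824 higher (5.24%) and 521 lower (3.31%) in the CD8a- T cells. DESeq2 called 186 genes (1.18%), 128 higher (0.814%) and 58 lower (0.369%). It gave no adjusted p for 2135 of the 15727 genes, which count as not called in these shares. Without replicate 1 of the CD8a- T cells edgeR called 318 genes, and without replicate 2 of the TCR- cells 2. Since edgeR called nothing, genes are described below by a rule of non-overlap: both libraries of 1 population above both of the other, with a fitted difference of at least 2-fold. By it 1011 genes were higher (6.43%) and 1427 lower (9.07%) in the CD8a- T cells. When only replicate 2 stood for the CD8a- T cells, 2181 genes were higher (13.9%) and 4298 lower (27.4%), and with only replicate 1, 1676 (10.7%) and 1601 (10.2%). Non-overlap at any size of difference held for 2583 genes higher (16.4%) and 2713 lower (17.3%) in the CD8a- T cells with all 4 libraries. The median log2 difference over all tested genes was −0.04.

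**Figure D2:**
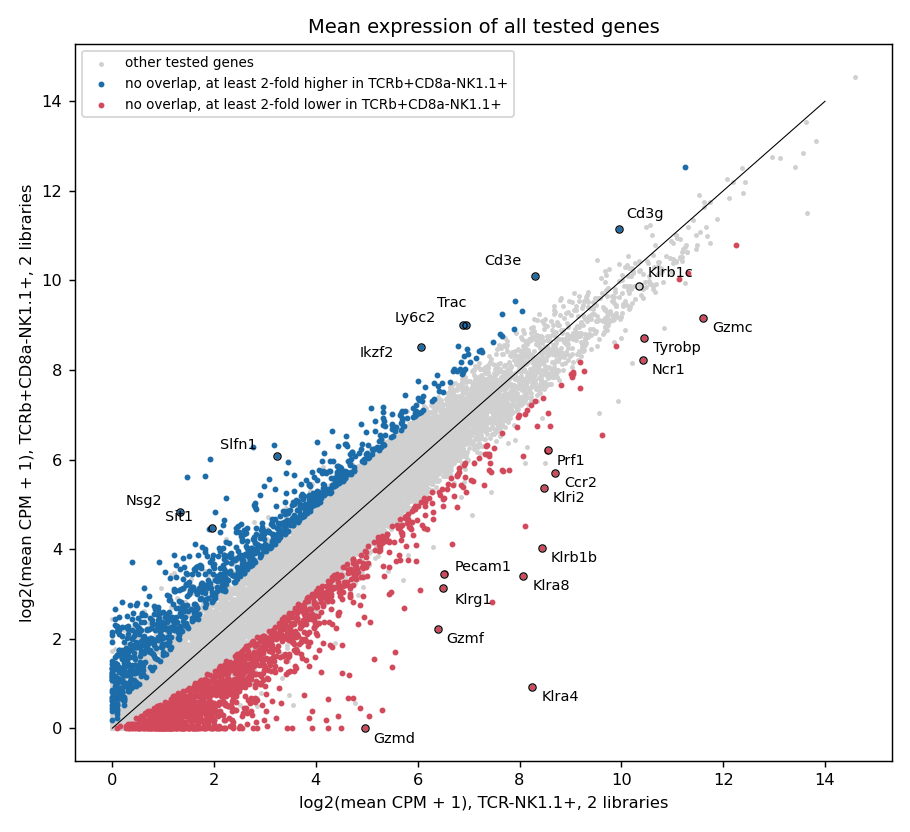
Mean expression, as log2(mean CPM + 1), of the 15727 tested genes in the TCR- cells (x axis) and the CD8a- T cells (y axis), with the line of equal expression. Blue and red points are the 1011 and 1427 genes whose 4 libraries do not overlap and differ at least 2-fold, and among those named, Cd3e and Trac lie above the line and Klra4, Gzmd and Prf1 below it.

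The receptor marker genes were higher in the cells sorted with a receptor, and the TCR- cells also held CD3 transcripts. Cd3e, which encodes the epsilon chain of CD3, was at 926 and 1275 CPM in the CD8a- T cells and at 208 and 418 CPM in the TCR- cells. All 4 values lay apart, and the difference was 1.81 ± 0.35 on the log2 scale (3.51-fold, adjusted p = 0.154). Trac, the constant gene of the alpha chain, was at 535 and 492 against 86.95 and 157 CPM, a difference of 2.07 ± 0.32 (adjusted p = 0.0911). For comparison, cNK libraries (conventional NK cells of the second set, normalised apart from these) held 0.622 and 6.13 CPM of Cd3e, 10.3 and 15.2 of Cd3g and 5.29 and 8.35 of Trac. The Cd3e, Cd3g and Trac levels of the TCR- cells were thus above those of cNK libraries in both replicates. The ILC1l libraries held 88.4 and 477 CPM of Cd3e, 391 and 1319.5 CPM of Cd3g and 24.3 and 138 CPM of Trac. What these transcripts in cells sorted without a receptor come from was not tested.

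The other CD3 chains followed the same order. Cd3d, the delta chain, was at 642 and 575 CPM in the CD8a- T cells and 177 and 224 CPM in the TCR- cells (1.60 ± 0.23, adjusted p = 0.0837). Cd3g, the gamma chain, was at 2336 and 2186 against 962 and 1013 CPM (1.19 ± 0.22, adjusted p = 0.118). In neither gene did the populations overlap, and the CD8a+NK1.1+ T cells stood higher still, at 1008 and 881 CPM for Cd3d and 4312 and 4047 CPM for Cd3g. Cd247, which encodes CD3 zeta and also serves NK receptors such as CD16, was at 203 and 187 against 108 and 87.8 CPM (1.00 ± 0.31, adjusted p = 0.498). The beta-chain constant genes differed from each other. Trbc2 was at 642 and 623 against 276 and 249 CPM (1.27 ± 0.23, adjusted p = 0.129) with no overlap, while Trbc1 was at 318 and 237 against 275 and 213 CPM and its libraries overlapped (0.19 ± 0.34). Both cNK libraries also held Trbc1, at 252 and 279 CPM. The 2 constant genes are near-identical copies, so reads may have been split between them or lost.

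Variable segments, which are joined into the receptor genes of T cells, were added after the data were seen. Summed over 20 Trbv segments found in the table, the CD8a- T cells held 564 and 569 CPM and the TCR- cells 89.1 and 125 CPM. Of 18 segments tested, 14 were higher and 1 lower without overlap and at least 2-fold, beside 6.43% and 9.07% of all genes. Over 33 Trav segments the sums were 89.5 and 61.6 CPM against 16.9 and 20.0 CPM, with 13 of 26 tested segments higher and none lower. The gamma constant gene Tcrg-C2 was at 389 and 345 against 97.2 and 124 CPM (1.73 ± 0.30, adjusted p = 0.11). Traj18, the joining segment of the invariant chain of type I NKT cells, had 36 and 2 counts in the CD8a- T cells and 1 and 23 counts in the TCR- cells, and the libraries overlapped.

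The promoters of Cd3d and Cd3e are shown because these neighbouring genes lie on the same side of the comparison in every library. Each sequence covers the 250 bases before the annotated start, 5′ to 3′ on the strand of the gene, from RefSeq on GRCm38.p6, with matches in capitals. The motifs searched on both strands were the ETS core AGGAAG and the T-box core AGGTGT, beside the RUNX core TGTGGT and the GATA core AGATAA, and no match in the printed sequences overlaps another. Cd3d lies at chr9:44981536-44981785 on the plus strand and Cd3e at chr9:45009612-45009861 on the minus strand.
Cd3d: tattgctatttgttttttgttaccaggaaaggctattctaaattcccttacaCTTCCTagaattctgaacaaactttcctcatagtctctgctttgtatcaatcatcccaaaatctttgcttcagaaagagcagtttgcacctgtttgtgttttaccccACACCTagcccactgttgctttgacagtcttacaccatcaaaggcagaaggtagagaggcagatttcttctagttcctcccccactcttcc
Cd3e: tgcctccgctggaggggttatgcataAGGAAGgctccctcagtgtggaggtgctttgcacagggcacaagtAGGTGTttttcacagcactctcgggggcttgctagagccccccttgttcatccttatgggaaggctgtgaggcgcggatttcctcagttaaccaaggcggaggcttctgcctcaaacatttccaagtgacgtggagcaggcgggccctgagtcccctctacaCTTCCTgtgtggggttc
Cd3d has 1 ETS and 1 T-box match and Cd3e has 2 and 1. Of the 6 receptor and coreceptor genes with a promoter in the table, 4 held an ETS match, 4 a T-box match, 1 a GATA match and 0 a RUNX match, where 29.5%, 11.8%, 9.99% and 14% of 32851 promoters did. A match describes the letters only.

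Coreceptor genes did not follow the CD3 chains. Cd8a was at 89.01 and 43.6 CPM in the CD8a- T cells, 176 and 358 CPM in the TCR- cells and 2646 and 2638 CPM in the CD8a+NK1.1+ T cells. The CD8a- T cells thus held the lowest level of the 3, with no overlap, at −2.01 ± 0.40 against the TCR- cells (adjusted p = 0.184) and −5.32 ± 0.47 against the CD8a+ T cells (adjusted p = 0.00264). CD8a was the sort marker here. Cd8b1, its partner chain, was at 10.8 and 0 CPM, 54.6 and 49.97 CPM and 426 and 483 CPM in the same order. Cd4, the coreceptor of helper T cells, had 2 and 2 counts in the CD8a- T cells and 73 and 27 counts in the TCR- cells. The sorted CD8a- T cells therefore held little transcript of either coreceptor, and the CD8a+NK1.1+ T cells had 0 and 0 counts of Cd4.

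Over the list of 14 CD3, receptor constant and coreceptor genes, 7 were higher and 3 lower without overlap and at least 2-fold, where 6.43% and 9.07% of all genes were, and the median log2 difference was 1.08. The 7 were Cd3d, Cd3e, Cd3g, Trac, Trbc2, Cd5 and Cd6, and the 3 were Cd4, Cd8a and Cd8b1. Cd5, an inhibitory receptor whose level rises with receptor signalling during T-cell development, was at 14.5 and 30.2 against 3.28 and 3.76 CPM (2.66 ± 0.39, adjusted p = 0.0837). Cd6, its relative, was at 56.9 and 46.2 against 16.6 and 29.7 CPM (1.15 ± 0.31). With only replicate 2 of the CD8a- T cells the counts were 7 and 3, beside 13.9% and 27.4% of all genes. With only replicate 1 they were 8 and 3, beside 10.7% and 10.2%. No gene of the list followed the epithelial or myeloid genes across libraries (correlation above 0.8).

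**Figure D3:**
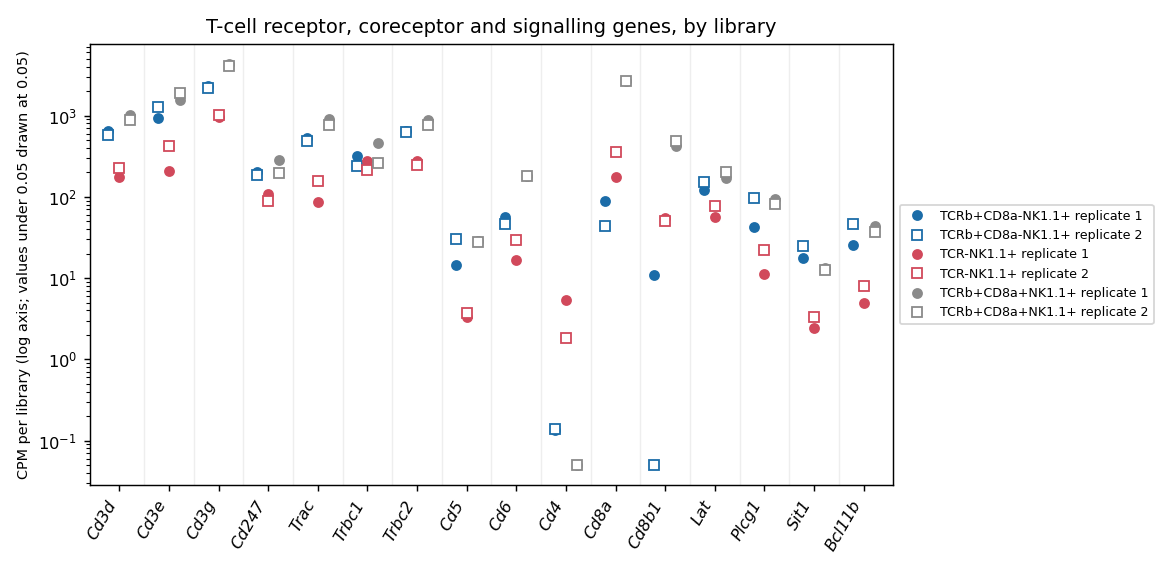
CPM per library (log axis) of receptor, coreceptor and signalling genes in the CD8a- T cells (blue), the TCR- cells (red) and the CD8a+NK1.1+ T cells (grey); circles are replicate 1 and squares replicate 2. The CD3 genes, Trac and Cd5 of the CD8a- T cells lie above those of the TCR- cells, and their Cd8a, at 89.0 and 43.6 CPM, lies below both other populations.

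Among 19 genes of receptor-proximal signalling, 5 were higher and 0 lower without overlap and at least 2-fold, beside 6.43% and 9.07% of all genes. The median log2 difference of the 19 was 0.64. Sit1, an adaptor that restrains receptor signalling, was at 17.4 and 24.96 CPM in the CD8a- T cells and 2.41 and 3.36 CPM in the TCR- cells. It differed by 2.87 ± 0.36 with an adjusted p of 0.0662, the lowest of the comparison and shared with other genes. Plcg1, the phospholipase that makes second messengers from the receptor, was at 42.4 and 98.1 against 11.2 and 22.3 CPM (2.07 ± 0.45). Lat, the scaffold that Zap70 phosphorylates, was at 120.0 and 153 against 57.2 and 77.6 CPM (1.02 ± 0.27). All of these kept the 4 libraries apart. The kinases at the receptor itself did not: Lck was at 1371 and 1130.1 against 1143 and 997 CPM and Zap70, which NK cells use as well, at 123 and 215 against 129 and 209.8 CPM, with overlapping libraries for both. With only replicate 2 of the CD8a- T cells 9 of the 19 genes were higher, where 13.9% of all genes were, and with only replicate 1 there were 2, near the 10.7% of all genes. Bcl11b, a transcription factor of T-cell commitment that is in none of the lists, was at 25.2 and 46.5 against 4.96 and 7.99 CPM (2.47 ± 0.43, adjusted p = 0.113).

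Genes of the NKT-cell list lay on both sides. NKT cells are T cells with NK receptors that recognise lipids on CD1d and depend on PLZF, the product of Zbtb16. Zbtb16 had 32 and 18 counts in the CD8a- T cells and 4 and 29 counts in the TCR- cells, or 2.14 and 1.25 against 0.292 and 1.95 CPM, and the libraries overlapped. Of 14 genes tested 2 were higher and 2 lower without overlap and at least 2-fold, beside 6.43% and 9.07% of all genes. The median of the 14 was 0.53. With only replicate 2 of the CD8a- T cells 4 were higher and 2 lower, beside 13.9% and 27.4% of all genes. With only replicate 1 there were 4 and 1, beside 10.7% and 10.2%. Cd40lg, a helper ligand for B cells and dendritic cells, was at 6.55 and 9.84 against 4.09 and 1.07 CPM (1.67 ± 0.89), and Ly6c2, a Ly6C chain found on memory T cells and monocytes, at 374 and 648 against 128 and 107 CPM (2.12 ± 0.31, adjusted p = 0.0837). Gata3, a factor of helper and innate lymphoid lineages, was at 134 and 131 against 148 and 137 CPM (−0.11 ± 0.24), and the costimulator gene Icos at 23.3 and 37.2 against 21.1 and 40.97 CPM (−0.04 ± 0.40). Icos overlapped. Gata3 lay apart by less than 2-fold, where 17.3% of all genes were lower without overlap at any size of difference.

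Of 13 helper and regulatory genes tested 2 were higher and 2 lower by the same rule (median −0.20), beside 6.43% and 9.07% of all genes. Foxp3, the factor of regulatory T cells, was at 8.82 and 2.50 against 6.42 and 6.58 CPM with overlap. Ikzf2, which encodes Helios, a factor of regulatory and innate-like T cells, was at 276 and 457 CPM in the CD8a- T cells and 38.4 and 93.5 CPM in the TCR- cells. It differed by 2.48 ± 0.43 (adjusted p = 0.113), and the CD8a+NK1.1+ T cells lay within the range of the CD8a- ones, at 328 and 340.1 CPM. Cd28, the main costimulatory receptor of T cells, was at 63.6 and 95.4 against 44.1 and 59.4 CPM (0.62 ± 0.29; 0.27 without replicate 2 and 0.90 without replicate 1 of the CD8a- T cells), and the inhibitory receptor gene Btla at 4.28 and 9.43 against 0.802 and 1.41 CPM (2.62 ± 0.62). Another inhibitory receptor gene, Cd101, was at 78.5 and 83.3 against 18.7 and 27.4 CPM (1.81 ± 0.35, adjusted p = 0.154), while Pdcd1, which encodes PD1, was at 11.1 and 23.2 against 49.02 and 34.99 CPM. The 4 libraries lay apart for Cd28, Btla, Cd101 and Pdcd1, for Cd28 by less than 2-fold. Of all genes 16.4% were higher and 17.3% lower without overlap at any size of difference.

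NK1.1 transcript was present in both populations, and other NK receptors lay on both sides. For Klrb1c, the NK1.1 gene, the CD8a- T cells held 975 and 888 CPM and the TCR- cells 1376 and 1213 CPM (−0.47 ± 0.43, adjusted p = 0.79). Ncr1, which encodes NKp46, an activating receptor of NK cells and ILC1, was at 309 and 289 against 1682 and 1055 CPM (−2.19 ± 0.67, adjusted p = 0.498). The CD8a- T cells lay below the TCR- cells for Ncr1 and above the CD8a+NK1.1+ T cells, which held 17.2 and 61.5 CPM. NKG2D and CD94, encoded by Klrk1 and Klrd1, were at 791 and 929.6 against 1081 and 807 CPM (−0.13 ± 0.32) and at 824 and 1023 against 1913 and 940.3 CPM (−0.63 ± 0.34), with overlap for both.

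By the rule of non-overlap 9.07% of all genes were lower and 6.43% higher in the CD8a- T cells. Of 22 NK lectin receptor genes tested, 6 were lower and 3 higher there without overlap and at least 2-fold. Those lower included Klrg1, an inhibitory receptor of mature NK and effector T cells, at 8.02 and 7.49 against 127 and 52.9 CPM (−3.53 ± 0.47, adjusted p = 0.0662). They also included Klra4 and Klra8, activating members of the Ly49 family, at 1.67 and 0.139 against 399 and 208 CPM (−8.36 ± 1.03, adjusted p = 0.0662) and 3.68 and 15.5 against 345 and 192 CPM (−4.81 ± 0.95). Klrb1b, an inhibitory relative of NK1.1, and Klri2 were at 24.7 and 6.10 against 385 and 308 CPM (−4.49 ± 0.74) and 26.3 and 54.5 against 332 and 377 CPM (−3.13 ± 0.51). In the opposite direction, the inhibitory Ly49 genes Klra1 and Klra6 were at 697 and 794 against 239 and 239 CPM (1.64 ± 0.34) and 219.9 and 198 against 67.2 and 90.6 CPM (1.40 ± 0.45). So within the Ly49 family members lay on both sides, each with no overlap of its 4 libraries. Members of the Klra and Klrb families resemble each other, some closely, so single values are uncertain.

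Of the adaptors of those receptors, Tyrobp was lower by the 2-fold rule and Fcer1g was not. Tyrobp, which encodes DAP12, the partner of activating Ly49 receptors, was at 462 and 381 against 1878 and 896 CPM (−1.72 ± 0.36, adjusted p = 0.201), and Fcer1g at 1388 and 1365 against 3089.8 and 1592 CPM (−0.77 ± 0.44). Without replicate 1 of the TCR- cells these differences were −1.12 for Tyrobp and −0.24 for Fcer1g. Syk, the kinase that binds their ITAMs, was at 4.61 and 8.80 against 32.8 and 25.99 CPM (−2.13 ± 0.78). Of the 9 adaptor and kinase genes, 0 were higher and 2 lower by the 2-fold rule, beside 6.43% and 9.07% of all genes. The 2 were Tyrobp and Syk, and the median of the 9 was −0.30. Myeloid cells express these 3 genes as well, and the myeloid sums given above lay in the same direction, 1329 and 484 against 2199 and 2085 CPM. The part of those cells in the difference was not tested.

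Several granule genes lay lower in the CD8a- T cells. Of 20 tested, 10 were lower, 0 higher and 10 neither without overlap and at least 2-fold (median −0.94, highest 0.58). Of all genes 9.07% were lower and 6.43% higher. With only replicate 2 or only replicate 1 of the CD8a- T cells 9 granule genes were lower, beside 27.4% and 10.2% of all genes. Prf1, which encodes perforin, was at 90.5 and 55.5 CPM in the CD8a- T cells and 435 and 315 CPM in the TCR- cells, a difference of −2.36 ± 0.35 (adjusted p = 0.0837). Gzmc was at 571 and 572 against 4176 and 2054 CPM (−2.45 ± 0.55) and Gzma, a tryptase-like granzyme, at 1947 and 1606 against 6502 and 3199 CPM (−1.45 ± 0.43; −0.88 without replicate 1 of the TCR- cells). Gzmb, the main inducer of target-cell apoptosis among granzymes, was at 8818 and 4922 against 9829 and 6108 CPM with overlap (−0.21 ± 0.39). DESeq2 called 8 of the 20 genes lower and 0 higher, beside 0.369% and 0.814% of all genes. None of the 20 followed the epithelial or myeloid genes.

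The granzymes next to Gzmc were at or near 0 in the CD8a- T cells. Gzmf was at 4.28 and 3.05 against 103 and 62.99 CPM (−4.50 ± 0.69, adjusted p = 0.0911). Gzmd had 0 counts in both CD8a- T-cell libraries and was at 42.7 and 17.5 CPM in the TCR- cells, at least 295-fold lower when 3 counts over the 2 libraries are taken as the limit. On the same limit Gzme was at least 139-fold and Gzmg at least 31.4-fold lower, with 18.3 and 10.01 CPM of Gzme and 4.52 and 1.88 CPM of Gzmg in the TCR- cells. Gzmc to Gzmg are near-identical neighbours, so reads may have been split or lost between them. Serpinb9b, a serpin of the granzyme inhibitor family, was also at 0 counts in the CD8a- T cells and at 23.5 and 19.6 CPM in the TCR- cells, at least 211-fold lower. No molecular identifiers are named in the labels, so these bounds describe counting error alone.

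The other populations place these genes differently. Gzmd was at 24.5 and 21.3 CPM in the ILC1l libraries and at 0 and 0 in the cNK libraries. Serpinb9b, in contrast, was at 2.68 and 3.91 CPM in ILC1l and 466 and 572 CPM in cNK libraries, and Cma1, a mast-cell protease gene also transcribed in mouse NK cells, at 0.867 and 1.58 against 393 and 514 CPM. The TCR- cells thus held both the gene that was high in ILC1l and the genes that were high in cNK libraries, while the CD8a- T cells held almost none of either, with Cma1 at 0.401 and 0 against 40.3 and 23.2 CPM. In the TCRab+ILTC1 libraries Gzmd was at 0 and 0 CPM. The 2 sets were normalised separately, so these levels are set side by side without a test.

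**Figure D4:**
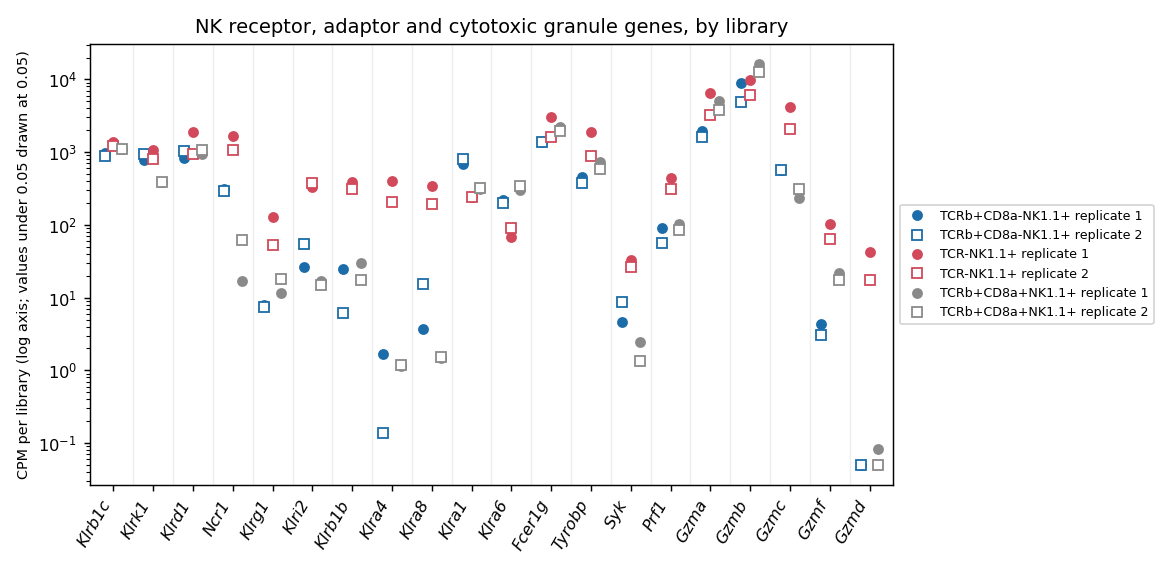
CPM per library (log axis, values under 0.05 drawn at 0.05) of NK receptor, adaptor and granule genes in the CD8a- T cells (blue), the TCR- cells (red) and the CD8a+NK1.1+ T cells (grey); circles are replicate 1 and squares replicate 2. Klrb1c, Klrk1 and Gzmb differ by less than 2-fold between the CD8a- T cells and TCR- cells, Klra4, Gzmf and Prf1 lie lower in the CD8a- T cells, and Klra1 and Klra6 lie higher.

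Promoters of 2 granule genes are printed because 10 of the 20 granule genes were lower and 0 higher by the 2-fold rule. They cover the same 250-base window from RefSeq on GRCm38.p6, Prf1 at chr10:61297586-61297835 on the plus strand and Gzmf at chr14:56211408-56211657 on the minus strand, with matches to the same 4 motifs in capitals.
Prf1: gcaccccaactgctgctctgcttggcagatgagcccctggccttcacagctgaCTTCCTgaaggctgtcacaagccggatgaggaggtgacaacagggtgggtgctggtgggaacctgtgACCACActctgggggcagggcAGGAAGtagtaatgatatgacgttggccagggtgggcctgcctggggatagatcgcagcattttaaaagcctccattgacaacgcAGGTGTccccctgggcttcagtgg
Gzmf: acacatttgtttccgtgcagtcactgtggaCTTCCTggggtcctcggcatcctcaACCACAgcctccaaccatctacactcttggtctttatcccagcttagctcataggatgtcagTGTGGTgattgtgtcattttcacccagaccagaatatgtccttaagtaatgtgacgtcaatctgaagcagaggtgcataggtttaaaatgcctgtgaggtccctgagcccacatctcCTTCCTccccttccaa
Prf1 has 2 ETS, 1 RUNX and 1 T-box match, and Gzmf 2 ETS and 2 RUNX matches. A RUNX match (TGTGGT on either strand) was in 12 of the 18 granule genes with a promoter in the table and in 14% of all 32851 promoters, and an ETS match was in 12 and in 29.5%. The granzyme genes are copies of each other, so the 18 promoters are not independent. Among the lower genes Gzma, Gzmc, Gzmd, Gzme, Gzmf, Gzmg, Prf1 and Lamp1 held a RUNX match, and Gzmk and Serpinb9b did not. Among the others Gzmb, Gzmm, Nkg7 and Rab27a held one, and Ctsc, Srgn, Serpinb6b and Serpinb9 did not. A match describes the letters only, and a link to expression was not tested.

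Some genes of NK-cell maturation and their regulators lay lower in the CD8a- T cells. Of 15 mature NK genes 6 were lower and 0 higher (median −0.62), beside 9.07% and 6.43% of all genes. With only replicate 1 of the CD8a- T cells 10 were lower and 0 higher, beside 10.2% and 10.7% of all genes. With only replicate 2, 6 were lower and 2 higher, beside 27.4% and 13.9%. Eomes, a T-box factor of NK cells, was at 13.6 and 19.6 against 30.4 and 46.1 CPM (−1.21 ± 0.32), and Id2, an inhibitor of E proteins needed by innate lymphocytes, at 1066 and 1243 against 3270.1 and 1769.8 CPM (−1.13 ± 0.31; −0.65 without replicate 1 of the TCR- cells). Irf8, an interferon regulatory factor of NK and myeloid cells, was at 51.7 and 54.5 against 187 and 254 CPM (−2.05 ± 0.49). None of the 3 overlapped. Tbx21, which encodes T-bet, was at 20.4 and 55.7 against 53.3 and 74.8 CPM and overlapped (−0.75 ± 0.52). Ccr2, a chemokine receptor for entry from blood, was at 28.6 and 73.8 against 317 and 513 CPM (−3.02 ± 0.53, adjusted p = 0.113), and the adhesion gene Pecam1, also a marker of endothelium, at 7.22 and 12.4 against 78.6 and 103 CPM (−3.21 ± 0.51, adjusted p = 0.0914). Of the 20 myeloid genes 14 and of the 8 tested stromal genes 5 were lower as well, beside 9.07% of all genes. With only replicate 1 of the CD8a- T cells 8 myeloid genes were lower, beside 10.2% of all genes. With only replicate 2 it was 18, beside 27.4%. The part of myeloid and stromal cells in the values of Irf8, Ccr2 and Pecam1 was not tested.

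Some genes of exit and recirculation lay higher in the CD8a- T cells. Of 14 genes 4 were higher (S1pr1, Lef1, Il7r and Bach2) and 0 lower (median 0.63), beside 6.43% and 9.07% of all genes. With only replicate 2 of the CD8a- T cells 4 were higher and 1 lower, beside 13.9% and 27.4%. S1pr1, the receptor that draws lymphocytes out of tissue, was at 43.2 and 59.2 against 7.66 and 11.7 CPM (2.40 ± 0.47, adjusted p = 0.166). Il7r, the receptor for the survival cytokine IL-7, was at 41.7 and 91.2 against 24.9 and 27.5 CPM (1.34 ± 0.46), and the factors Tcf7 and Lef1 at 114 and 114 against 71.7 and 52.4 CPM (0.88 ± 0.33) and 37.8 and 37.7 against 23.5 and 12.96 CPM (1.05 ± 0.47). For S1pr1, Il7r, Tcf7 and Lef1 the libraries lay apart, Tcf7 by less than 2-fold, and without replicate 2 of the CD8a- T cells Il7r differed by 0.65. Tissue-residency genes were closer together. Itga1, which encodes CD49a, was at 165 and 271 against 94.3 and 192 CPM (0.61 ± 0.44), Itgae, which encodes CD103, at 939.6 and 547 against 498 and 724 CPM (0.28 ± 0.33) and Cxcr6, a receptor of tissue-resident lymphocytes, at 1139 and 1321 against 773 and 953 CPM (0.51 ± 0.27). Only Cxcr6 of these 3 kept the libraries apart. Like Tcf7, it did so by less than 2-fold, where 16.4% of all genes were higher without overlap at any size of difference. Of 19 residency genes 0 were higher and 3 lower by the 2-fold rule (Tmem176a, Tmem176b and Cd9), beside 6.43% and 9.07% of all genes.

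No gene of the type 1 cytokine axis differed by the 2-fold rule, and several chemokine genes lay lower in the CD8a- T cells. Ifng was at 59.6 and 69.1 against 89.1 and 73.8 CPM (−0.34 ± 0.32). Of the 12 genes of the axis 0 were higher and 0 lower, beside 6.43% and 9.07% of all genes. Of 7 chemokine genes 4 (Ccl3, Ccl4, Ccl1 and Ccl9) were lower in the CD8a- T cells (median −1.30), beside 9.07% of all genes. The myeloid sums lay lower there too, at 1329 and 484 against 2199 and 2085 CPM. The part of myeloid cells in the chemokine values was not tested. Ccl3 and Ccl4, inflammatory chemokines, were at 39.6 and 51.8 against 171 and 91.7 CPM (−1.52 ± 0.45) and 215 and 287 against 765 and 472 CPM (−1.30 ± 0.33), and Ccl5 was at 5454 and 6195 against 6648 and 3885 CPM with overlap. Cxcr3, a receptor for interferon-induced chemokines, was at 148 and 181 against 72.7 and 53.3 CPM (1.39 ± 0.27, adjusted p = 0.154). Of 16 interferon response genes 4 were higher and 0 lower (median 0.37), beside 6.43% and 9.07% of all genes. Among the 4 was Mx1, an antiviral GTPase, at 63.6 and 77.2 against 26.9 and 23.4 CPM (1.49 ± 0.27, adjusted p = 0.116). With only replicate 2 of the CD8a- T cells 5 interferon genes were higher and 3 lower, beside 13.9% and 27.4% of all genes. With only replicate 1 there were 3 and 0, beside 10.7% and 10.2%. Beside 6.43% and 9.07% of all genes, cytokine receptor, cell-cycle and glycolysis genes (14, 16 and 12 tested) had 0 higher and 0 lower. With only replicate 2 of the CD8a- T cells 2, 3 and 3 of them were lower, where 27.4% of all genes were.

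For the lists that follow, 6.43% of all genes were higher and 9.07% lower by the same rule. Of 12 costimulator genes 0 were higher and 2 lower (Tnfrsf25 and Tnfsf11). Of 11 inhibitory receptor genes 2 were higher (Btla and Cd101) and 1 lower (Pdcd1). Of 5 other NK receptor genes 0 were higher and 2 lower (Ncr1 and Fcgr3). Of 12 chemokine receptor genes 1 was higher (Cxcr3) and 3 lower. With only replicate 2 of the CD8a- T cells 3 were higher, beside 13.9% of all genes. Of 15 immediate early genes 1 was lower (Egr1), and 6 with only replicate 1 of the CD8a- T cells, beside 10.2% of all genes. Of the lists of other cells, 5 of 16 epithelial genes were lower, and 14 with only replicate 2, beside 27.4% of all genes. For B cells 4 of 8 genes were lower, and 2 with only replicate 1, beside 10.2%. So were 3 of 4 erythroid and platelet genes and 1 of 3 mast-cell genes, with 0 higher in each of these lists. The mast-cell gene was Cma1, which mouse NK cells also transcribe. Of 3 gamma-delta constant genes 1 was higher.

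Outside the lists, 4 further genes were picked after their values were seen for low adjusted p and non-overlap. Slfn1, a Schlafen gene linked to T-cell quiescence, was at 54.3 and 78.97 against 6.71 and 10.2 CPM (2.97 ± 0.33, adjusted p = 0.0662). Nsg2 was at 24.7 and 30.3 against 1.75 and 1.28 CPM (4.18 ± 0.54, adjusted p = 0.0662), and Dpp4, which encodes the peptidase CD26, at 41.4 and 54.01 against 13.4 and 15.6 CPM (1.72 ± 0.32). In the other direction Tnfsf4, which encodes OX40 ligand, was at 0.267 and 0 against 12.8 and 21.7 CPM (−6.90 ± 1.07, adjusted p = 0.0911). The 4 libraries lay apart for each.

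**Figure D5:**
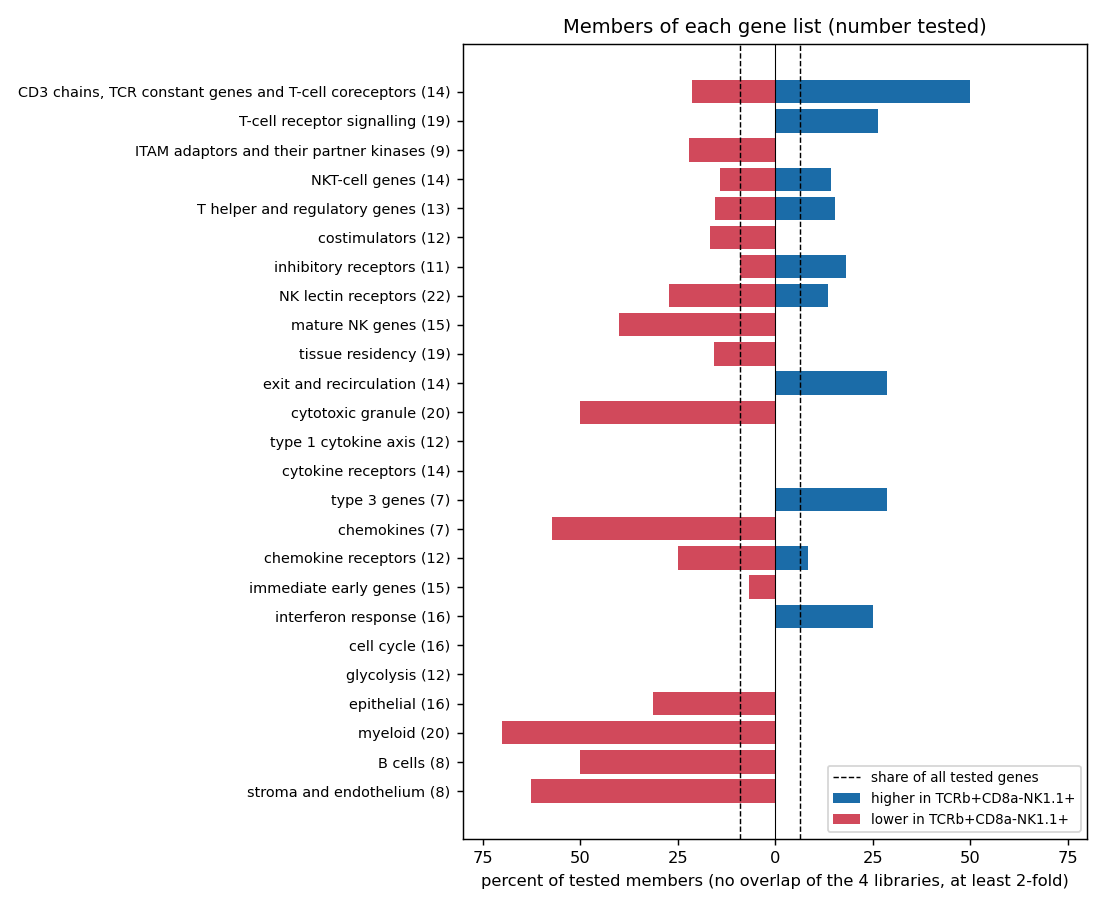
Percent of the tested members of each gene list (lists with at least 7 tested members, number in brackets) that were higher (blue, right) or lower (red, left) in the CD8a- T cells without overlap of the 4 libraries and at least 2-fold; dashed lines mark the 6.43% and 9.07% of all tested genes. Receptor, signalling and exit genes extend to the right, and granule, mature NK, chemokine and myeloid genes to the left.

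Against the CD8a+NK1.1+ T cells, which share the CD8a- T-cell libraries with the comparison above, 52 genes were higher (0.331%) and 1 lower (0.00636%) in the CD8a- T cells by edgeR's quasi-likelihood test at an adjusted p under 0.05. The gene that fell was Cd8a. Of the 53 genes 27 followed the epithelial list, whose sums were 4000.3 and 309 against 74.2 and 56.7 CPM, and 25 of those that rose did not. The myeloid sums were higher too, at 1329 and 484 against 176 and 234 CPM. The part of epithelial and myeloid cells in the genes named next was not tested. Il7r rose by 4.70 ± 0.55 (adjusted p = 0.00985), from 3.84 and 1.25 to 41.7 and 91.2 CPM, and S1pr1 by 3.34 ± 0.49 (adjusted p = 0.026), from 7.25 and 2.84 to 43.2 and 59.2 CPM. Il18r1, a receptor chain for the innate cytokine IL-18, rose by 3.63 ± 0.43 (adjusted p = 0.00985), from 2.50 and 4.26 to 52.99 and 30.7 CPM. Ly6c2 rose by 3.00 ± 0.32 (adjusted p = 0.00732) from 65.3 and 62.7 CPM, and Cd28 by 2.08 ± 0.30 (adjusted p = 0.0252) from 17.9 and 19.6 CPM. Anxa1, which encodes annexin A1, rose by 6.90 ± 0.58 (adjusted p = 0.00264), from 3.17 and 5.27 to 632 and 379 CPM, and the TCR- cells were above the CD8a+NK1.1+ T cells as well, at 1056 and 603 CPM. The TCR- cells held 54.8 and 60.8 CPM of Il18r1 as well. These genes were chosen after their values were seen. The number called was 138 without replicate 1 and 667 without replicate 2 of the CD8a- T cells, and 5 and 2 without replicate 1 and 2 of the CD8a+NK1.1+ T cells. Cd3e and Prf1 did not pass: Cd3e differed by −0.65 ± 0.34 (adjusted p = 0.613), and Prf1 by −0.36 ± 0.33 (adjusted p = 0.89).

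The second pair, TCRab+ILTC1 against ILC1l, shares no library with the first, and its receptor-bearing cells carried Cd8a. There 0 of 16828 genes passed (0%), with 1072 (6.37%) at an unadjusted p under 0.05 and 201 by DESeq2, and 324 passed without replicate 1 of TCRab+ILTC1. Among 15194 genes tested in both sets, 974 were higher without overlap and at least 2-fold in the CD8a- T cells, and 193 of them (19.8%) were also higher in TCRab+ILTC1, where 5.52% of all genes were. Those 193 are 23% of the 838 genes higher in the second pair, and 60 of the 974 (6.16%) lay the other way. Of 1317 lower genes 352 (26.7%) were also lower, beside 10.2% of all genes, and these are 22.6% of the 1556 genes lower in the second pair. Another 42 (3.19%) lay the other way.

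Among the genes that lay the same way in both pairs, Cd3e was at 1713 and 1388 CPM in TCRab+ILTC1 and 88.4 and 477 in ILC1l cells, and Trac at 791 and 804 against 24.3 and 138 CPM. Ikzf2 was at 273 and 457 against 53.8 and 80.7 CPM and S1pr1 at 27.5 and 24.5 against 2.28 and 4.33 CPM. Ncr1 was at 174 and 101 against 1780.3 and 1649 CPM, Prf1 at 141 and 154 against 591 and 518 CPM and Gzmc at 469.7 and 256 against 3448 and 3534 CPM. The libraries of the second pair lay apart for each of these 7 genes. Ly6c2, at 286 and 77.5 against 45.7 and 100.4 CPM, and Nsg2, at 17.96 and 1.16 against 1.81 and 1.25 CPM, overlapped there. Cd8a went the other way, at 1668 and 2281 CPM in TCRab+ILTC1 and 52.9 and 256 CPM in ILC1l cells.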

How the data were processed

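RNA-seq of 22 libraries was deposited as 1 table of whole read counts per gene, made by the authors with BWA 0.7.5a, Picard and HTSeq with mm9 and NCBIM37 as builds, according to the submitters' processing notes; the sources used here do not give counting settings or strand use. Of 37620 entries 32897 (99.02% of counts) were matched to symbols, and 3 symbols were shared.

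Counts were tested in R 4.3.3 with edgeR 4.0.16 (quasi-likelihood F test after TMM scaling and filterByExpr; threshold 0.05 on the Benjamini-Hochberg adjusted p) over all 5 populations of the first set (10 libraries) or 6 of the second (12 libraries), with DESeq2 1.42.0 as an alternative and a check on simulated data. Tables and figures used Python 3.11.15, pandas 2.3.3 and matplotlib 3.10.9. Titles ILC1I and ILC1l were read as 1 population. A log2 difference is given ± SE, as CD8a- T cells minus TCR- cells. The SE was derived from the edgeR test, as the absolute log2 difference over the square root of F. A gene follows a list where its log2 CPM correlates with the mean of the list above 0.8 over the 22 libraries. For the myeloid list the TCRgd+NK1.1- libraries were left out. A gene with 0 counts is bounded by 3 counts over the 2 libraries. Sh2d1b1, Lilrb4a, Scart2 and Trdc were not matched.

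The comparison, the 29 gene lists and the alternatives were chosen with earlier results of these data known. Genes named by rule are 26 key genes, the 10 called genes of largest change each way with at least 20 CPM, up to 3 called members each way of a list, and up to 2 members of highest CPM of a list with no call. As edgeR called no gene, most others were named after their values were seen.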

Additional observations from a re-analysis of the deposited data

Results flagged for a closer look

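Both CD8 chain genes lay in opposite directions in the 2 pairs of populations with and without a T-cell receptor, in every library. Cd8a was at 89.01 and 43.6 CPM in the CD8a- T cells and 176 and 358 CPM in the TCR- cells, a log2 difference of −2.01, and at 1668 and 2281 CPM in TCRab+ILTC1 and 52.9 and 256 CPM in ILC1l cells, a difference of 3.67. Cd8b1 was at 10.8 and 0 against 54.6 and 49.97 CPM in the first pair (−3.27) and at 286 and 189 against 3.39 and 26.9 CPM in the second (3.97). The difference between the pairs was not tested. CD8a was a sort marker of the first pair, whose T cells were taken without it, and the label of the TCRab+ILTC1 cells names no CD8.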

How the results depend on the processing

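For the CD8a- T cells against the TCR- cells, edgeR called 0 genes also with RLE size factors, with only the 2 populations and without genes that follow the myeloid list. The count was 186 with DESeq2, 287 with no filter on low counts, 5 with at least 5 CPM in 2 libraries and 20 without genes that follow the epithelial list. Leaving out each library in turn gave 0 to 318. With the replicate number as a block it was 16 (11 higher, 5 lower). Deviations of same-numbered libraries correlated at 0.145 across genes, but with 2 pairs and no label that ties them the numbers name libraries only. The count of genes without overlap and at least 2-fold was 2246 with followers of either list left out and 975 at 4-fold, against 2438, and ran from 3277 to 6479 with 1 library of the CD8a- T cells left out; these alternatives were chosen after seeing the data.

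Against the CD8a+NK1.1+ T cells the count of 53 became 560 with DESeq2, 906 with no filter, 81 with at least 5 CPM, 3 with only the 2 populations, 27 without genes that follow the epithelial list and 2 to 667 with a library left out, and 54, 72 and 49 with RLE, the block and without myeloid followers. For TCRab+ILTC1 against ILC1l the count of 0 became 201 with DESeq2, 344 with no filter and 0 to 324 with a library left out. Why the counts moved was not tested.

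Of 816 values of 68 genes under alternatives, 7 changed direction, all with 1 library left out. The ranges over the 4 fits that leave out a library were −0.022 to 0.36 for Trbc1, −0.47 to 0.54 for Icos, −0.31 to 0.061 for Klrk1, −0.68 to 0.13 for Gzmb and −0.15 to 0.60 for Itgae. None of these 5 genes was called. With 1 library left out the log2 difference moved by over 1.5 times for 23 of the 68 genes, these 5 included. The ranges were 0.76 to 1.65 for Cd6, 1.31 to 2.67 for Plcg1, 1.03 to 2.89 for Cd40lg, 0.27 to 0.90 for Cd28, −1.03 to −0.057 for Klrd1, −1.15 to −0.24 for Fcer1g, −2.14 to −1.12 for Tyrobp, −1.85 to −0.88 for Gzma, −1.68 to −0.19 for Tbx21, −1.48 to −0.65 for Id2, −0.47 to −0.22 for Ifng, 0.65 to 1.82 for Il7r, 0.15 to 1.23 for Itga1 and 0.34 to 0.69 for Cxcr6. The others, Cd8b1, Cma1, Jchain and Tnfsf4, had few or no counts in a library of the CD8a- T cells. Of the 68 genes 42 passed with DESeq2, 45 with no filter, 31 without replicate 1 of the CD8a- T cells, 15 without genes that follow the epithelial list, 12 with the block, 5 with at least 5 CPM and 1 without replicate 2 of the TCR- cells.

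With 2 libraries a population, single-gene differences are estimated on few libraries, and replicate 2 of the CD8a- T cells held fewer detected genes. A count of 3 equalled 0.20 to 0.22 CPM in the 4 libraries, and values near that level rest on few counts.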
